A study of Mus musculus with 6 samples.

Results

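Glycolysis and hypoxia response genes were followed in samples described by the labels as endothelial cells that had entered Matrigel plugs, gels of basement membrane proteins. Markers of other cell types, among them adipocytes, are given below. Recombinant microfibrillar-associated protein 5 (MFAP5), a secreted protein of elastic microfibrils, had been mixed into the gel of 3 samples (MFAP5 group), and 3 samples came from plugs without it (Control group). All plugs were placed intraperitoneally in Balb/c nude mice, which lack mature T cells, and each sample was read on 1 Affymetrix whole-genome mouse array. The labels give no age of the mice, no protein dose, no time in the animal and no method of cell isolation. They call the samples independent without naming the animal of each, so p-values measure the spread between these samples, which may be technical. The set holds 36 named genes, and a gene entered when the array annotation gave a probe set (a group of probes for 1 transcript) that gene's symbol alone. This gave 33 genes and 78 probe sets, among 18193 genes and 45037 probe sets in all. Gpi1, Eno1 and Bnip3l had no such probe set and are not analysed here.

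Glycolysis splits glucose into pyruvate in the cytosol. When oxygen is short, pyruvate is turned mostly into lactate, which leaves the cell through monocarboxylate transporters. Oxygen also sets the amount of the hypoxia-inducible factors (HIF): prolyl hydroxylases mark the alpha subunits for destruction while oxygen is present, and in its absence the alpha subunits pair with ARNT and switch on glycolytic enzymes, glucose transporters and survival genes. Endothelial cells are known to draw much of their energy from glycolysis, and PFKFB3 is a known driver of it in sprouting vessels.

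Values are log2 signals relative to each probe set's median over the 6 arrays, so differences between samples can be read and absolute levels cannot. The log base of 2 was assumed, and every fold rests on it. A gene's value is the mean of its probe sets. A gene was called when its limma p-value, adjusted over all 18193 genes (Benjamini-Hochberg), was under 0.05. Control replicate 1 stood apart from the other controls. Its correlations with them across probe sets were -0.028 and 0.020, where the other 2 correlated at 0.686, and its hybridization spike-ins averaged -0.32, against 0.64 and 0.65. The MFAP5 spike-ins lay between -0.038 and -0.007. Results that changed without that sample are given below.

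Of the 33 genes 1 fell and none rose with MFAP5 (limma). The gene that fell was Ldhb, which encodes the heart-type subunit of lactate dehydrogenase, at 4.87-fold lower. Over all genes 2.79% were called lower and 0.759% higher. At an unadjusted p under 0.05, 4 members were higher and 5 lower, beside 5.33% and 14.4% of all genes. These counts turned on single samples: they were 9 higher and 2 lower without MFAP5 replicate 3, and 2 higher and 10 lower without MFAP5 replicate 2. The median difference of the members was -0.073, close to the -0.079 of all genes, and the member median was 0.075 without MFAP5 replicate 3 and -0.18 without MFAP5 replicate 2. The MFAP5 and Control values did not overlap in 12 members. In 6 of them MFAP5 was higher (18.2% of 33, beside 6.51% of all genes) and in 6 lower (18.2%, beside 17.8%).

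**Figure D1:**
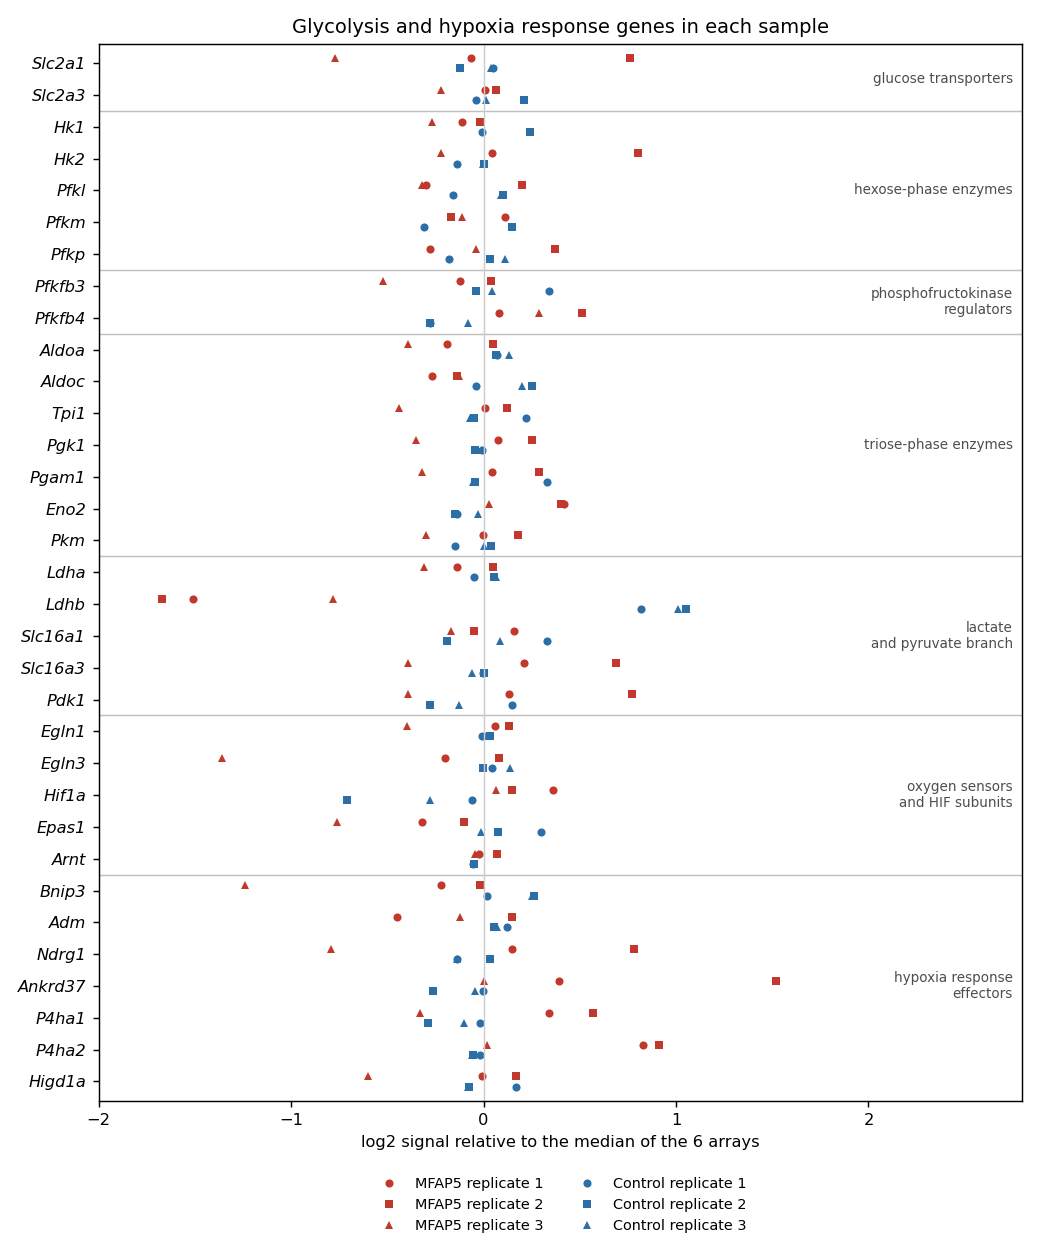
Log2 signal of each of the 33 genes relative to its median over the 6 arrays (x axis), with 1 point per sample, MFAP5 above Control in each row and genes grouped by role. Ldhb is the row whose groups lie farthest apart. In many other rows the square of MFAP5 replicate 2 is the rightmost MFAP5 point and the triangle of MFAP5 replicate 3 the leftmost. In some of these rows, such as Slc2a1 and Ndrg1, all Control points lie between the square and the triangle.

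Lactate dehydrogenase interconverts pyruvate and lactate. Its tetramers are built from the muscle-type subunit of Ldha, a known HIF target, and the heart-type subunit of Ldhb, which is abundant in oxidative tissues. Because the genes of these subunits gave the widest contrast in the set, their promoters are shown first, with each match to the core of the hypoxia response element in capitals. Windows are 5′ to 3′ on the gene's strand, from 250 bases before to 50 after the start (RefSeq, GRCm38.p6): Ldhb at chr6:142507908-142508207 on the minus strand, and the upstream start of Ldha at chr7:46845554-46845853 on the plus strand.
Ldhb: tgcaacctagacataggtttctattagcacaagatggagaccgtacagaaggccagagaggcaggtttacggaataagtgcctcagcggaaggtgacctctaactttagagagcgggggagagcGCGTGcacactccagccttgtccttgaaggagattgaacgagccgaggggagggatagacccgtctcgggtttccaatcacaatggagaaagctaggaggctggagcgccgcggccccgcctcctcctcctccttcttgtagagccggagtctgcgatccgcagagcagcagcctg
Ldha: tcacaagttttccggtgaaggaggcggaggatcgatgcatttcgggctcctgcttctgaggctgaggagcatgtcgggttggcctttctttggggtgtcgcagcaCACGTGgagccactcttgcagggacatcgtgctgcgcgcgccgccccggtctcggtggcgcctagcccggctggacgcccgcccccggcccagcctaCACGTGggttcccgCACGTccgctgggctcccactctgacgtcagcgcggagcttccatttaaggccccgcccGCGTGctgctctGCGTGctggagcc
The letters searched were ACGTG and GCGTG on both strands. Matches could overlap, and CACGTG counted 2 times since it reads alike on both strands. The Ldhb window held 1 GCGTG and no ACGTG, while this Ldha window held 5 matches of ACGTG and 2 of GCGTG. The window of a second Ldha start, at chr7:46846832-46847131, held 2 of GCGTG and no ACGTG. Of all 32851 promoter windows 43.8% held at least 1 of the motifs, and of the 41 windows found for 30 members 34 did (82.9%). The member windows were richer in G and C, at a median of 63.3%, against 52.7% over all windows. A match is a description of the letters and shows no binding.

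Ldhb had signals of -1.51, -1.67 and -0.78 in MFAP5 replicates 1, 2 and 3, against 0.82, 1.05 and 1.01 in Control replicates 1, 2 and 3. Every MFAP5 sample lay well below every Control sample, and MFAP5 replicate 3 was the least low. The log2 difference was -2.28 ± 0.21 (SE, n = 3 per group; limma adjusted p = 0.00113), with a 95% interval of -2.77 to -1.80. All 4 probe sets of Ldhb passed the threshold, at differences between -2.43 and -2.17. No other member had a called probe set, so 4 of 78 were lower and none higher, beside 1.72% and 1.56% of all probe sets. The names of 2 of the 4 carry the suffix that marks probes which may also match other transcripts. These 2 gave -2.32 and -2.17, and the other 2 -2.43 and -2.22. Whichever sample was left out, the difference stayed between -2.55 and -2.11 and passed.

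Ldha read -0.14, 0.051 and -0.31 in the MFAP5 samples, against -0.051, 0.052 and 0.067 in the Control samples. The groups overlapped, and the difference of -0.15 ± 0.12 missed the threshold (limma adjusted p = 0.494; 95% interval -0.42 to 0.11). Within each array, Ldha minus Ldhb was 1.37, 1.72 and 0.48 in the MFAP5 samples, against -0.87, -1.0 and -0.95 in the Control samples. The ratio of the subunits' transcripts therefore differed by 2.13, or 4.38-fold, without overlap (exact permutation test, two-sided, p = 0.10, the smallest that 3 against 3 can give; adjusted p = 0.183 over 11 pairs).

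**Figure D2:**
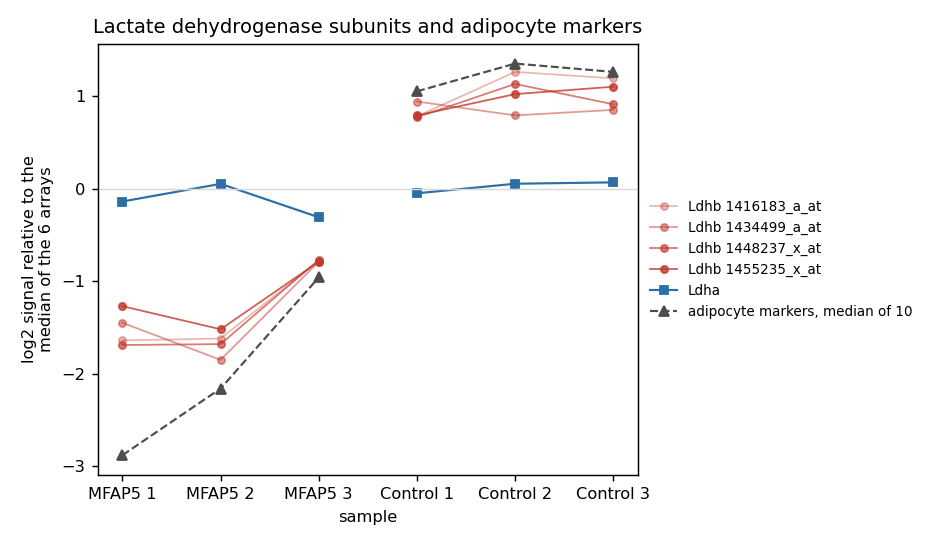
Log2 signal (y axis) in each of the 6 samples (x axis) of the 4 Ldhb probe sets, of Ldha and of the median of 10 adipocyte markers. The Ldhb lines run together at -0.77 or lower in the MFAP5 samples and at 0.77 or higher in the Control samples, while the Ldha line stays between -0.31 and 0.067.

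Adipocyte transcripts moved in the same samples as Ldhb. Of 12 adipocyte markers 10 were measured, 8 fell and none rose, and all 10 lay lower without overlap. Their median stood at -2.88, -2.16 and -0.96 in the MFAP5 samples, against 1.05, 1.35 and 1.26 in the Control samples, so that MFAP5 replicate 3 was again the least low. Lep, the hormone of fat cells, was at -3.02. Slc2a4, or GLUT4, which takes up glucose in response to insulin, was at -2.60, and Pparg, a regulator of fat cell differentiation, at -2.45. In RNA from mixed cells, fewer cells of a type and less RNA per cell cannot be told apart. The part of adipocyte RNA in the Ldhb difference was not tested. Because probe sets are centred, no marker can be read as absent. Of 12 endothelial markers none was called by limma, 3 had an unadjusted p under 0.05 and all 3 of these were lower, and the median difference was -0.17. Of 8 measured neutrophil markers S100a8 was at -1.63 and S100a9 at -1.22, both called. The other 6 were not called, 2 of the 8 had positive differences, and the list median was -0.29. Of 10 fibroblast markers 8 had positive differences, 3 with an unadjusted p under 0.05 and none called higher, and the median was 0.23, while Pi16 fell by 0.93 (limma). None of 10 macrophage, 8 mesothelial, 11 skeletal muscle and 3 red blood cell markers was called, with 1, 1, 4 and 1 at an unadjusted p under 0.05.

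Slc2a1 and Slc2a3 encode GLUT1 and GLUT3, transporters that carry glucose into cells without insulin. Neither was called, with differences of -0.013 and -0.11. Slc2a1 had signals of -0.064, 0.76 and -0.77 in the MFAP5 samples, against 0.051, -0.12 and 0.038 in the Control samples. The highest and the lowest of the 6 samples were both MFAP5 samples, and the 95% interval of the difference ran from -0.74 to 0.71. The 3 probe sets of Slc2a1 lay between -0.41 and 0.43, so they disagreed in direction. Slc2a3 had an interval of -0.39 to 0.16.

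In the hexose phase, hexokinases trap glucose as its phosphate and phosphofructokinases commit it to the pathway. Hk1 encodes the broadly expressed hexokinase, and its signals were -0.11, -0.018 and -0.27 in the MFAP5 samples, against -0.010, 0.24 and 0.24 in the Control samples. Each MFAP5 value was below each Control value, but the nearest pair differed by less than the spread within a group. The difference was -0.29 ± 0.12 (limma adjusted p = 0.225), with probe sets at -0.49 and -0.085. Hk2, the hexokinase that HIF and insulin induce, stood at 0.25 with overlapping groups. Within arrays, Hk2 minus Hk1 was 0.15, 0.82 and 0.045 with MFAP5, against -0.13, -0.24 and -0.24 in Control samples, a difference of 0.54 without overlap (exact permutation test, p = 0.10; adjusted p = 0.183). Pfkl, Pfkm and Pfkp, the liver, muscle and platelet forms of phosphofructokinase, were at -0.15, -0.052 and 0.030, and none was called.

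Pfkfb3 and Pfkfb4 make and break fructose 2,6-bisphosphate, the activator of phosphofructokinase. Pfkfb4 had signals of 0.082, 0.51 and 0.29 in the MFAP5 samples, against -0.28, -0.28 and -0.082 in the Control samples. All MFAP5 samples were higher than all Control samples, and the difference of 0.51 ± 0.13 had the smallest p after Ldhb without passing (limma adjusted p = 0.0764; 95% interval 0.21 to 0.81). Pfkfb3 stood at -0.31 with overlapping groups (adjusted p = 0.335). Its 2 probe sets disagreed in direction, at -0.66 and 0.038, and only their mean was set against Pfkfb4. Pfkfb3 minus Pfkfb4 was -0.20, -0.47 and -0.81 in the MFAP5 samples, against 0.62, 0.24 and 0.12 in the Control samples, so the balance between them was lower by 0.82 on the log2 scale without overlap (exact p = 0.10; adjusted p = 0.183).

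In the triose phase, aldolase splits the hexose bisphosphate and the enzymes after it turn the trioses into pyruvate. Of 7 genes measured (Aldoa, Aldoc, Tpi1, Pgk1, Pgam1, Eno2 and Pkm) none was called, and their differences ran from -0.32 to 0.39. Aldoc, the brain-type aldolase, read -0.27, -0.14 and -0.13 in the MFAP5 samples, against -0.041, 0.25 and 0.20 in the Control samples. In the mean of its 2 probe sets the groups did not overlap, and the difference was -0.32 ± 0.11 (limma adjusted p = 0.173; 0.0345 without Control replicate 1). The probe sets were at -0.57 and -0.063, and in each of them alone the groups overlapped. The fit without Control replicate 1 called 1914 of all genes lower, against 508 with all samples. Leaving out any other sample gave adjusted p-values of 0.258 to 0.460 for Aldoc. Eno2, the neuronal form of enolase, read 0.42, 0.40 and 0.030 with MFAP5, against -0.14, -0.15 and -0.030 in Control samples. MFAP5 replicate 3 lay near the Control values, and the difference was 0.39 ± 0.13 (adjusted p = 0.148). Aldoa, the main aldolase of most tissues, was at -0.27 without overlap (adjusted p = 0.283). Its 5 probe sets lay between -0.43 and 0.031, and in some of them the groups overlapped. The names of all 5 carry the suffix for probes that may also match other transcripts. Pgk1, the kinase of the first ATP-making step, and Pkm, pyruvate kinase of most tissues, were at 0.015 and -0.007, with intervals of -0.33 to 0.36 and -0.32 to 0.31. Gapdh, the step between Tpi1 and Pgk1, was read only on the array's 3 control probe sets, whose mean was -0.11, 0.10 and -0.30 with MFAP5 and 0.066, -0.015 and 0.045 in Control samples (exact permutation test, p = 0.400).

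At the exits of the pathway, Slc16a1 and Slc16a3 encode the lactate transporters MCT1 and MCT4, and Pdk1 encodes the kinase that switches off pyruvate dehydrogenase. Their differences were -0.094, 0.19 and 0.26, and none was called. Pdk1 was positive on all 4 of its probe sets, between 0.062 and 0.53, and its groups overlapped.

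**Figure D3:**
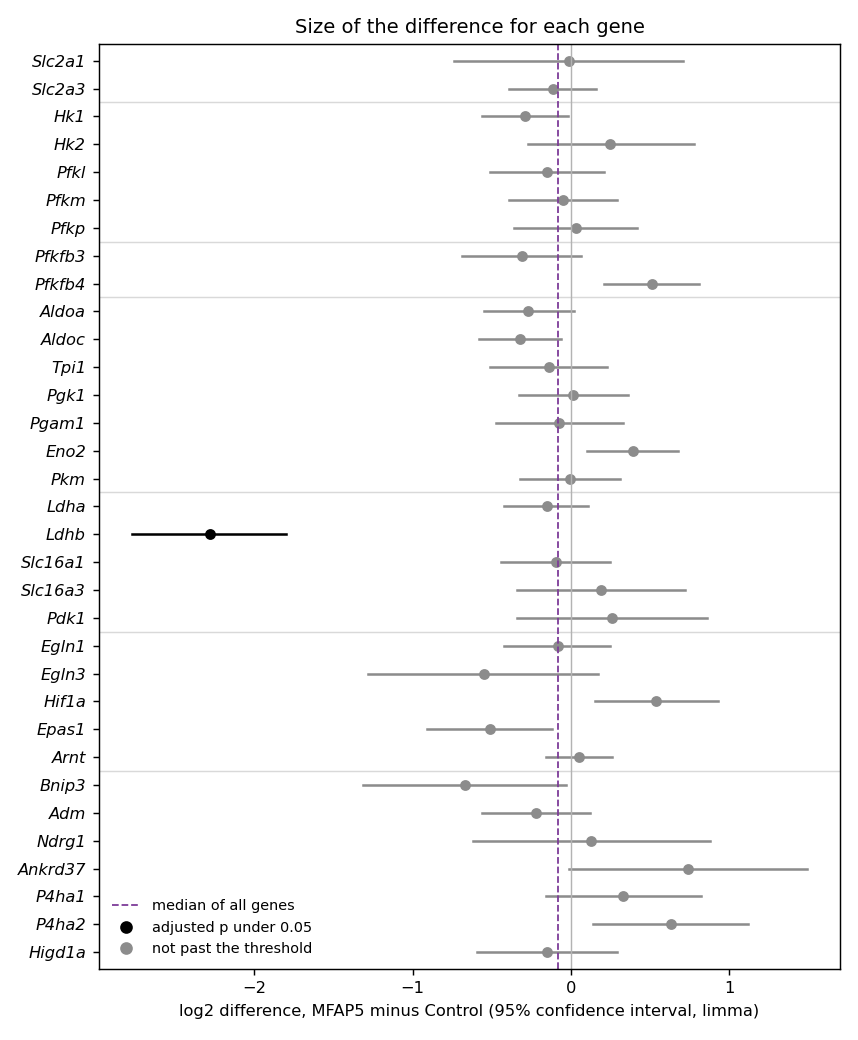
Log2 difference, MFAP5 minus Control, of each gene (point) with its 95% confidence interval from limma (bar), with the genes in role order. Ldhb, drawn in black at -2.28, is the only gene past the threshold, and 0 lies inside the intervals of most others.

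Of the HIF subunits and oxygen sensors none of 5 was called, while the 2 alpha subunits differed in opposite directions. Hif1a had signals of 0.36, 0.15 and 0.065 in the MFAP5 samples, against -0.061, -0.71 and -0.28 in the Control samples. All MFAP5 values were higher, the difference was 0.54 ± 0.17 (limma adjusted p = 0.133), and its 4 probe sets lay between 0.30 and 0.76. Without Control replicate 1 it was 0.69 (limma adjusted p = 0.0346), in a fit that called 760 of all genes higher and 1914 lower, against 138 and 508 with all samples. Leaving out any other sample gave adjusted p-values of 0.174 to 0.342 for Hif1a. Epas1, which encodes HIF-2 alpha, an isoform typical of endothelium, had signals of -0.32, -0.10 and -0.76 in the MFAP5 samples, against 0.30, 0.075 and -0.014 in the Control samples. All MFAP5 values were lower in this mean of 2 probe sets, and the difference was -0.51 ± 0.17 (adjusted p = 0.159). The probe sets were at -0.64 and -0.38, and in each of them alone the groups overlapped by a narrow margin. Hif1a minus Epas1 was 0.68, 0.24 and 0.83 in the MFAP5 samples, against -0.36, -0.79 and -0.27 in the Control samples, which is 2.08-fold higher without overlap (exact permutation test, p = 0.10; adjusted p = 0.183). Arnt, the shared partner, lay at 0.053, above all controls by a narrow margin and with its 5 probe sets split between -0.26 and 0.36.

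Egln1 and Egln3 encode prolyl hydroxylases, and Egln3 is itself a strong HIF target. Egln3 read -0.20, 0.079 and -1.36 in the MFAP5 samples, against 0.044, -0.002 and 0.14 in the Control samples. MFAP5 replicate 3 alone was far below the rest, and the difference of -0.55 ± 0.32 missed the threshold (limma adjusted p = 0.371). Egln1 was at -0.082, and Egln3 minus Egln1 was lower with MFAP5 by 0.47 on the log2 scale without overlap, by a narrow margin between the nearest samples (exact permutation test, p = 0.10).

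The effectors of the hypoxia response are shown with the promoters of Bnip3, at chr7:138909457-138909756 on the minus strand, and Ankrd37, at chr8:45999801-46000100 on the minus strand. These HIF targets had the lowest and the highest difference of the effectors measured, and neither was called. Capitals mark the same motifs as above.
Bnip3: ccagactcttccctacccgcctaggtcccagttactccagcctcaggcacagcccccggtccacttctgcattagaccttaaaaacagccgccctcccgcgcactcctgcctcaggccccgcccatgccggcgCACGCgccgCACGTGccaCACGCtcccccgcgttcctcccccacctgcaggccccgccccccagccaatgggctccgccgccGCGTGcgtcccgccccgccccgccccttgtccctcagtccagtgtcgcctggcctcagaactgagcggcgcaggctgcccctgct
Ankrd37: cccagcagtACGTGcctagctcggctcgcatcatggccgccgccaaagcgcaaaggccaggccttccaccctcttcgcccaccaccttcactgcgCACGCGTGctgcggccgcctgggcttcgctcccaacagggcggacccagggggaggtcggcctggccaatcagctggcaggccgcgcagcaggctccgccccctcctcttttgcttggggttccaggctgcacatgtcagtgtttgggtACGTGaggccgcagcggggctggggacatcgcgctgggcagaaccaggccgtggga
The Bnip3 window held 2 matches of ACGTG and 3 of GCGTG, and the Ankrd37 window 2 of each.

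Bnip3, a mitochondrial protein that triggers mitophagy, read -0.22, -0.018 and -1.24 in the MFAP5 samples, against 0.018, 0.26 and 0.25 in the Control samples. The MFAP5 values were all lower, with replicate 3 far below, and the difference was -0.67 ± 0.28 (limma adjusted p = 0.235). Ankrd37, an ankyrin repeat protein, read 0.39, 1.52 and 0.003 with MFAP5, against -0.003, -0.26 and -0.042 in Control samples. MFAP5 replicate 2 was far above the rest, replicate 3 met the highest control, and the difference was 0.74 ± 0.33 (adjusted p = 0.261).

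P4ha1 and P4ha2 encode the catalytic subunits of collagen prolyl 4-hydroxylase. P4ha2 had signals of 0.83, 0.91 and 0.019 in the MFAP5 samples, against -0.019, -0.054 and -0.062 in the Control samples. MFAP5 replicates 1 and 2 were high and replicate 3 was close to the controls. The difference was 0.63 ± 0.22 (limma adjusted p = 0.16), and without MFAP5 replicate 3 it was 0.91 and passed (adjusted p = 0.00500). Leaving out any other single sample did not bring P4ha2 past the threshold. P4ha1 was at 0.33 with overlapping groups. P4ha2 minus P4ha1 was 0.49, 0.34 and 0.35 with MFAP5, against -0.003, 0.24 and 0.038 in Control samples, higher by 0.30 without overlap (exact p = 0.10). Adm, the vasodilator peptide adrenomedullin, Ndrg1, a stress-induced growth regulator, and Higd1a, a mitochondrial inner membrane protein, were at -0.22, 0.13 and -0.15, and none was called.

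**Figure D4:**
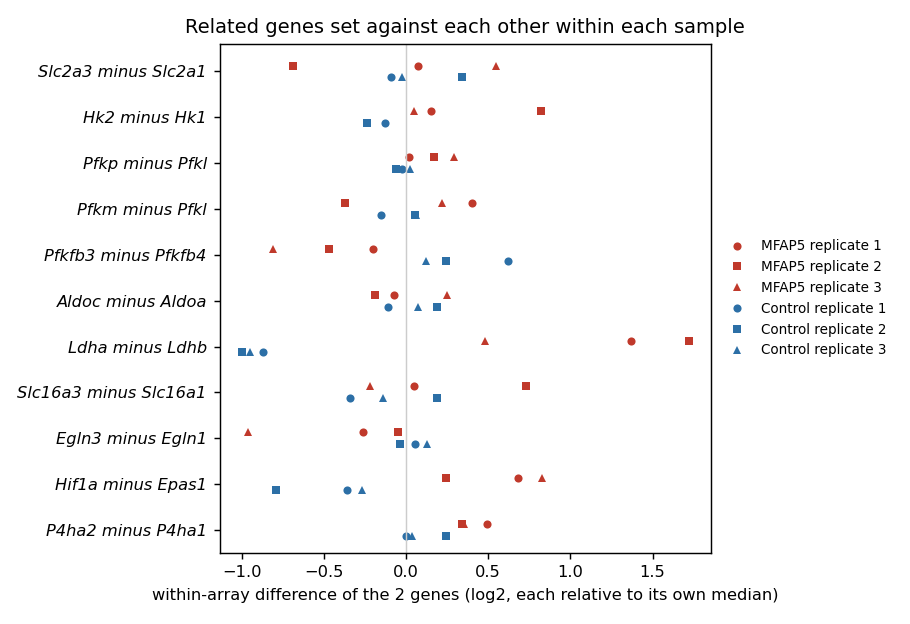
Within-array log2 difference of 2 related genes (x axis), each relative to its own median, for 11 pairs, with 1 point per sample and MFAP5 above Control in each row. The groups do not overlap in 6 pairs, and Ldha minus Ldhb has the widest gap, from -0.87 in the highest Control sample to 0.48 in the lowest MFAP5 sample.

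Of the 11 pairs of related genes, 6 had groups that did not overlap: those of the lactate dehydrogenases, HIF alpha subunits, Pfkfb enzymes, hexokinases, Egln enzymes and P4ha subunits. The other 5 overlapped, with differences of -0.10 for Slc2a3 minus Slc2a1, 0.18 for Pfkp minus Pfkl, 0.10 for Pfkm minus Pfkl, -0.053 for Aldoc minus Aldoa and 0.28 for Slc16a3 minus Slc16a1. With 3 samples a group none of the 11 could pass a threshold of 0.05. Single genes did not overlap in 6.51% (MFAP5 higher) and 17.8% (MFAP5 lower) of all genes, and the share over other gene pairs was not computed. Ldhb, Hif1a, Epas1, Pfkfb4, Hk1 and P4ha2 also did not overlap when the gene values were read alone. For Epas1 neither probe set separated the groups by itself. The Egln pair separated narrowly, at -0.051 in MFAP5 replicate 2 against -0.038 in Control replicate 2.

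The members varied more among the MFAP5 samples than among the Control samples. The SD over the 3 MFAP5 samples had a median of 0.30 over the members, against 0.13 over the 3 Control samples, and it was the larger SD of the groups in 28 of 33 (84.8%). Over all genes the medians were 0.12 and 0.15, and 41.1% had the larger SD in the MFAP5 group. MFAP5 replicate 2 had the highest signal of its group and replicate 3 the lowest in 24 members (72.7%), beside 18.8% of all genes. This count was made after the values were seen, and genes of a set that vary together are not independent. Ldhb was among the members outside it, with replicate 3 its highest MFAP5 value.

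MFAP5 replicate 2 exceeded replicate 3 by more than 1 in 8 members (24.2%, beside 0.726% of all genes), and their sample values are given for that gap. They were Ndrg1, Slc2a1, Ankrd37, Egln3, Bnip3, Pdk1, Slc16a3 and Hk2, with gaps between 1.02 and 1.57. Ndrg1 read 0.15, 0.78 and -0.79 in the MFAP5 samples, against -0.14, 0.031 and -0.14 in the Control samples. Pdk1 read 0.13, 0.77 and -0.39, against 0.15, -0.28 and -0.13 in Control samples. Slc16a3 read 0.21, 0.69 and -0.39 with MFAP5, against -0.004, 0.004 and -0.059 in Control samples. Hk2 read 0.046, 0.80 and -0.22, against -0.14, 0.002 and -0.002 in Control samples. In each of these 4 genes the Control samples lay between the highest and the lowest MFAP5 sample. In Bnip3, by contrast, all MFAP5 samples lay below the controls, and in Ankrd37 all lay above them. Leaving out replicate 3 gave differences of 0.55 for Ndrg1, 0.54 for Pdk1 and 0.36 for Slc2a1, and leaving out replicate 2 gave -0.23, -0.044 and -0.40, none of which passed.

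The hypoxia response effectors as a group had medians of 0.15, 0.57 and -0.33 in MFAP5 replicates 1, 2 and 3, against -0.003, -0.054 and -0.062 in the Control samples. The triose-phase enzymes stood at 0.007, 0.18 and -0.32 with MFAP5, against -0.009, -0.046 and -0.010 in Control samples. The array medians of MFAP5 replicates 2 and 3 were 0 and -0.014, and their spike-ins -0.008 and -0.007. Adipocyte medians of -2.16 and -0.96, and beta-actin log2 ratios (the 3′ end of the transcript over its 5′ end) of 0.082 and 0.036, also differed between these 2 samples. Their part in the spread was not tested.

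**Figure D5:**
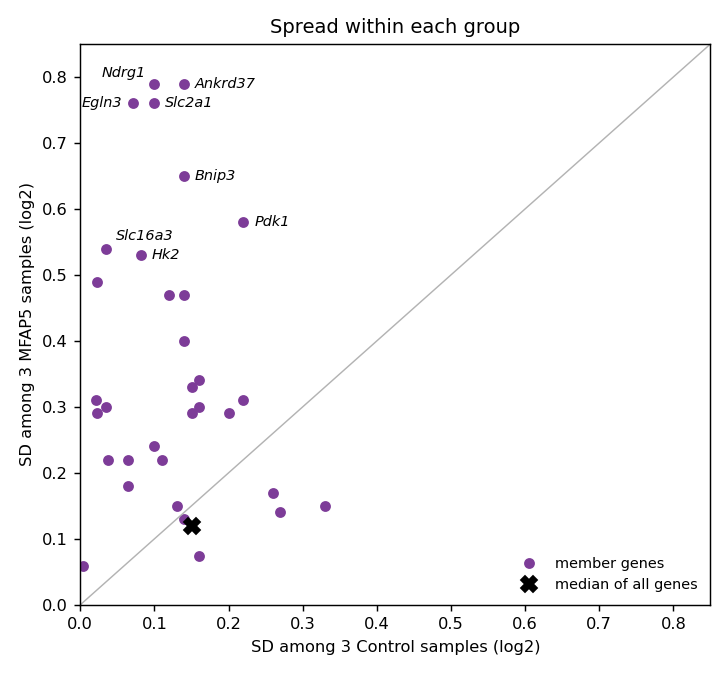
SD of the log2 signal among the 3 MFAP5 samples (y axis) against that among the 3 Control samples (x axis), 1 point per gene, with the line of equal SD and a cross at the median of all genes. Most points lie above the line, and the 8 genes with an SD over 0.5 in the MFAP5 group are named.

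Other genes of the pathways were read from 2 further lists. Of 34 measured genes of glycolysis, pyruvate entry and glycogen, 4 fell and none rose (limma; 14 lower and none higher at an unadjusted p under 0.05, beside 14.4% and 5.33% of all genes), with a median difference of -0.26, against -0.079 over all genes. The 4 were Slc2a4, given above, and 3 genes of the pyruvate dehydrogenase complex, which carries pyruvate into the citric acid cycle. Pdhx, its E3-binding protein, read -0.60, -0.30 and -0.26 in the MFAP5 samples, against 0.26, 0.63 and 0.44 in the Control samples, a difference of -0.83 ± 0.14 (adjusted p = 0.0147). Pdhb and Pdha1, the E1 subunits, were at -0.65 ± 0.095 (adjusted p = 0.00839) and -0.52 ± 0.11 (adjusted p = 0.0475). All 3 were lower in every MFAP5 sample than in any Control sample. Pdha1 passed in 1 of the 6 fits that left out a sample, the fit without Control replicate 1, with adjusted p-values of 0.0581 to 0.203 in the others. Pdhx lost its call without MFAP5 replicate 1 (0.0501) and Control replicates 2 (0.0718) and 3 (0.0776), and Pdhb without Control replicate 3 (0.0523). The count of lower genes depended on single samples: it was 11 without Control replicate 1 and 2 and 1 without Control replicates 2 and 3, and 2 without MFAP5 replicate 1. With the spike-in covariate Pdhx and Pdha1 no longer passed (adjusted p = 0.0541 and 0.112, limma). Adipocyte markers were lower in the same samples, and their part in these differences was not tested.

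Of 48 measured genes of the HIF pathway and hypoxia response 1 rose and none fell (limma; 3 higher and 6 lower at an unadjusted p under 0.05, beside 5.33% and 14.4% of all genes), with a median of 0.009. The gene was Plod2, a lysyl hydroxylase of collagen, at 0.71, 0.67 and 0.18 in the MFAP5 samples, against -0.36, -0.74 and -0.51 in the Control samples. Every MFAP5 value lay above every Control value, as in 6.51% of all genes, and Plod2 was higher by 1.06 ± 0.16, or 2.09-fold (adjusted p = 0.0112). Without Control replicates 2 and 3 its adjusted p was 0.0612 and 0.0622, and with the mean of the spike-ins as a covariate 0.0549. In this list MFAP5 replicate 2 was highest and replicate 3 lowest of the group in 43.8% of genes, and in the glycolysis and glycogen list in 35.3%. Beta-actin 3′ to 5′ ratios were 0.14, 0.082 and 0.036 in the MFAP5 samples, against -0.005, -0.053 and -0.032 in the Control samples, higher without overlap (exact permutation test, two-sided, p = 0.10). The Gapdh ratios overlapped (exact permutation test, p = 0.400), and the part of RNA quality in the differences above was not tested.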

How the data were processed

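Total RNA of 6 samples was read on 1-colour Affymetrix arrays after amplification and biotin labelling, per the labels' protocols. MAS5 is named in the submitters' processing notes, with no settings, log base or later steps. Deposited values lie on a log scale, read as log2 here, and are centred: each probe set's median differs from 0 by at most 5.0e-07. Centring left no signal level, so dim probe sets could not be filtered.

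The 64 control probe sets were left out of the tests. Of the other 45037, 34945 carried 1 gene symbol in the platform annotation, 932 several and 9160 were not listed. Symbols were updated by Entrez identifier from a RefSeq table (GRCm38.p6). Genes were tested with limma (version 3.58.1, R 4.3.3; lmFit, eBayes without trend, two-sided) across 18193 genes, and likewise across probe sets. Gene pairs and single values were tested by exact permutation of the 6 arrays. The limma fit was tested on simulated data with normal noise.

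The members and lists were chosen with earlier results of these data known. All members are reported, with sample values for the 10 of smallest p. Of the pathway lists every gene past the threshold is named, and of marker lists up to 3. Alternatives were quantile normalization, median centring, the probe set of largest SD, array weights, a robust variance, the replicate number as a block, the mean of 14 bacterial spike-in probe sets as a covariate, control probe sets kept, and leaving out each sample. The number of arrays limits the precision.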

Additional observations from a re-analysis of the deposited data

How the results depend on the processing

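Ldhb was called lower under every alternative run, at -2.55 to -2.11. Array weights, which ran from 0.31 for Control replicate 1 to 3.29 for Control replicate 3, gave 4 higher members (Hif1a, P4ha2, Pfkfb4, Eno2) and 3 lower (Ldhb, Hk1, Aldoc), 13 lower genes of the glycolysis and glycogen list, 3 higher and 2 lower of the HIF list, and 1125 higher and 2879 lower of all genes, against 138 and 508. With the spike-in covariate 0 genes of the HIF list were higher (4 at an unadjusted limma p under 0.05), and 48 and 316 of all genes were called higher and lower. With the probe set of largest SD 223 of all genes were higher and 1 of the HIF list lower. A Hif1a probe set was called higher with quantile normalization (1) and with the replicate block (1). Array weights called 2 member probe sets higher and 6 lower. The replicate block changed no call of a member gene. Same-numbered samples deviated together with correlations of 0.180, 0.055 and 0.072. As 2 of the 3 were under 0.1, the numbers were not taken as pairs, and Control replicate 2 correlated more with MFAP5 replicate 3 (0.058) than with its own number.

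With each sample left out, members higher ran from 0 to 1 and lower from 1 to 2. Glycolysis and glycogen genes higher ran from 0 to 1 and lower from 1 to 11. HIF list genes higher ran from 0 to 2 and lower from 0 to 3. Member probe sets higher ran from 0 to 2 and lower from 4 to 6. All genes higher ran from 14 to 760 and lower from 205 to 1914. Both upper ends over all genes were reached without Control replicate 1. Uncalled differences changed sign: Slc2a1 (-0.40 to 0.36), Hk2 (-0.041 to 0.47), Pfkm (-0.21 to 0.025), Pfkp (-0.15 to 0.18), Tpi1 (-0.25 to 0.030), Pgk1 (-0.11 to 0.19), Pgam1 (-0.22 to 0.090), Pkm (-0.12 to 0.12), Slc16a1 (-0.23 to 0.034), Slc16a3 (-0.072 to 0.47), Pdk1 (-0.044 to 0.54), Egln1 (-0.18 to 0.084), Ndrg1 (-0.23 to 0.55), Higd1a (-0.31 to 0.077), and the pairs Slc2a3 minus Slc2a1 (-0.38 to 0.24), Pfkm minus Pfkl (-0.063 to 0.32) and Aldoc minus Aldoa (-0.18 to 0.041). Signs also changed for Slc2a1 with median centring (0.021), the largest-SD probe set (0.43) and array weights (0.022), Pfkm with quantile normalization (0.011) and the spike-in covariate (0.11), Pfkp and Pgam1 with array weights (-0.047 and 0.052), Pkm with quantile normalization (0.018), median centring (0.028) and the spike-in covariate (0.051), and Tpi1, Slc16a1 and Arnt with the largest-SD probe set (0.16, 0.024 and -0.26). The cause was not tested. The count of 24 members with MFAP5 replicate 2 highest and 3 lowest was 23 with quantile normalization, 24 with median centring and 21 with the largest-SD probe set, alternatives chosen after seeing the data.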
